A study of Homo sapiens with 6 samples.

Results

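Human chromosome 19 carries most of the clustered zinc finger genes of the genome, and the genes described here are its protein-coding genes with a symbol made of ZNF and a number. They were taken from the RefSeq gene table for GRCh38.p14 by chromosome and symbol alone, with no measured value. There were 246 such genes among 19970 protein-coding genes, and they are set beside the 1205 other protein-coding genes of chromosome 19 and the 263 genes of the same naming on other chromosomes. Most proteins of this kind join a row of DNA-binding C2H2 zinc fingers to a KRAB domain, which recruits the corepressor TRIM28 and, through it, the histone methyltransferase SETDB1. Many of them silence retrotransposons: ZNF91 acts on SVA elements and ZNF93 on young L1 elements. The genes arose by tandem duplication and stand in clusters of close relatives.

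Accessibility was measured in GM12878, an Epstein-Barr virus-transformed B lymphoblastoid line, by InTAC-seq, an ATAC-seq protocol that works after fixation and antibody staining and tags open DNA with the transposase Tn5. The H3K27ac-high and H3K27ac-low groups are cells of that line that were stained for viability, fixed in paraformaldehyde, stained for acetylated lysine 27 of histone H3, a modification found at active regulatory DNA, and sorted by staining. The live control is the same line, unsorted and not put through the reversal of crosslinks that the sorted cells went through. Each of the 3 groups has 2 libraries of 50000 cells, transposed for 30 min at 37 °C, and the cells were divided into replicates after sorting, so replicates may differ only by technical spread. The staining protocol in the labels writes the antibody's target as H3K37ac, read here as H3K27ac. Sorting, fixation and crosslink reversal set the sorted libraries apart from the live control, and their effects cannot be told apart.

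The deposited data are 1 list of peak summits for each library, which held 25754 and 46708 summits in the H3K27ac-high libraries, 41980 and 51944 in the H3K27ac-low libraries and 70100 and 72476 in the live control. The lists hold no read counts, so depth is not known. Summits were joined into regions, which were ranked in each library by the peak caller's score with rank 1 the strongest, and the best 25627 of each library were kept. High replicate 1 had no more than these, so a gene without one there is in no other place of its list. Below, an open gene is one with the summit of a kept region within 1 kb of either of its annotated ends. The B lymphoblastoid marker list had 7 and 7 of its 12 genes open in the high, 6 and 8 in the low and 7 and 7 in the live control. MS4A1, which encodes CD20, was open in all 6 libraries. None of 8 myeloid or 6 erythroid markers was open in any library, and T and NK markers were open for 4 and 2 of 8 in the high, 2 and 2 in the low and 2 and 2 in the live libraries.

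The promoters of a few of these genes are shown because the results below turn on them. Each run covers 250 bases before to 50 after the RefSeq start on GRCh38.p14, written 5′ to 3′ along the gene. Capitals mark the ETS core, CCGGAAG or its reverse complement CTTCCGG, and the CCAAT box, CCAAT or its reverse complement ATTGG, the core words bound by ETS factors and by NF-Y. ZNF8 (chr19:58278705-58279004, plus strand) was the gene whose weakest rank over all libraries was the best. ZNF91 (chr19:23395422-23395721, minus strand) and ZNF724 (chr19:23250345-23250644, minus strand) were open everywhere, while ZNF208 (chr19:22010894-22011193, minus strand) of the same cluster had no summit anywhere. ZNF274 (chr19:58182811-58183110, plus strand) and ZNF20 (chr19:12140301-12140600, minus strand) were open in the low but not in the high libraries.
ZNF8: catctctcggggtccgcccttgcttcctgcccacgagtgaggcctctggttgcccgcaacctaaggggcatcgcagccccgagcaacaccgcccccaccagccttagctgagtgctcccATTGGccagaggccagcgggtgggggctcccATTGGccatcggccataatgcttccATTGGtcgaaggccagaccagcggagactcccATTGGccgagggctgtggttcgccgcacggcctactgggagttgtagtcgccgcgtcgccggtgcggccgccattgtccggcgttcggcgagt
ZNF91: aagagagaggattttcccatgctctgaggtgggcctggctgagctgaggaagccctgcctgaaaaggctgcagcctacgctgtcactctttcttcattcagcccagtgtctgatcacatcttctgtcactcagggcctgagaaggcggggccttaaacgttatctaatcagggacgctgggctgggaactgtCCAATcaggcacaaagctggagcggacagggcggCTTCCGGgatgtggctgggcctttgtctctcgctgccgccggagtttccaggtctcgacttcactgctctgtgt
ZNF724: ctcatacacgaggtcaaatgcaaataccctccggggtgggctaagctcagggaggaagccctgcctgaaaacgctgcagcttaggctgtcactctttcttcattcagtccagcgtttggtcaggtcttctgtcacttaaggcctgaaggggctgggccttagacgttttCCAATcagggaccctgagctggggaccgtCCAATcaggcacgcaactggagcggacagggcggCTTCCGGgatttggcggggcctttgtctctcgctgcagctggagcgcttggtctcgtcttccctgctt
ZNF208: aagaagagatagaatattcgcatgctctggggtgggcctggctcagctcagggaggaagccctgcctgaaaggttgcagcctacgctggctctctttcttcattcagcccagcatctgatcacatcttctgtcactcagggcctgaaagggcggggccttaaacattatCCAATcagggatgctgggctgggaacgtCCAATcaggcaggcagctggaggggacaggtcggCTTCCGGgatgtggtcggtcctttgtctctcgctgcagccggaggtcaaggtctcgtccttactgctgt
ZNF274: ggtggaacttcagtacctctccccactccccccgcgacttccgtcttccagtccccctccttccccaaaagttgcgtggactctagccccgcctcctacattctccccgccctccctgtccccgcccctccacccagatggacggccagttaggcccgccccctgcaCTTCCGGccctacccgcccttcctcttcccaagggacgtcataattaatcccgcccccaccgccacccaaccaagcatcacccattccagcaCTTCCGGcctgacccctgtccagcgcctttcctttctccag
ZNF20: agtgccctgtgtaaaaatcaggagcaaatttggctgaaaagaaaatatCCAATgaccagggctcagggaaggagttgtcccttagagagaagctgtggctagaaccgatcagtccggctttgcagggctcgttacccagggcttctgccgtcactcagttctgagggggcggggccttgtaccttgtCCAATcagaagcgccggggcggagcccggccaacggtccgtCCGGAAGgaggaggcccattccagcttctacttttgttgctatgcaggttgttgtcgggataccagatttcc

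Fewer chromosome 19 ZNF genes were open in the H3K27ac-high libraries than in the others. Of the 246 genes, 111 and 133 were open in the high, 150 and 156 in the low and 154 and 156 in the live control. These are shares of 45.1% and 54.1% in the high, 61.0% and 63.4% in the low and 62.6% and 63.4% in the live control. The 95% Wilson interval is for counting error alone and takes the genes as independent. It was 39.0% to 51.4% for high replicate 1 and 47.8% to 60.2% for high replicate 2. For low replicate 1 it was 54.8% to 66.9% and for low replicate 2 it was 57.2% to 69.2%. The interval of high replicate 2 thus overlaps both of the low. The group means were 49.6% ± 6.32 in the high group, 62.2% ± 1.72 in the low group and 63.0% ± 0.57 in the live control (SD, n = 2 each). The 2 high libraries were below all 4 others. Over all protein-coding genes the shares were 44.6% and 47.6% in the high, 49.7% and 49.6% in the low and 49.0% and 49.0% in the live libraries, so there too the high libraries were lowest, by less.

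High minus low was -12.6 percentage points and high minus live -13.4 points (two-sided exact permutation test over libraries, p = 0.333 each). That is the smallest p that 2 libraries against 2 allow, so neither difference could pass. Low minus live was -0.81 points (exact p = 1). Leaving out high replicate 1 gave -8.13 and -8.94 points. When its omission was used to lengthen the lists to the next shortest, 41828 regions, the differences were -3.66 and -4.07 points. The 2 contrasts share the high libraries.

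**Figure D1:**
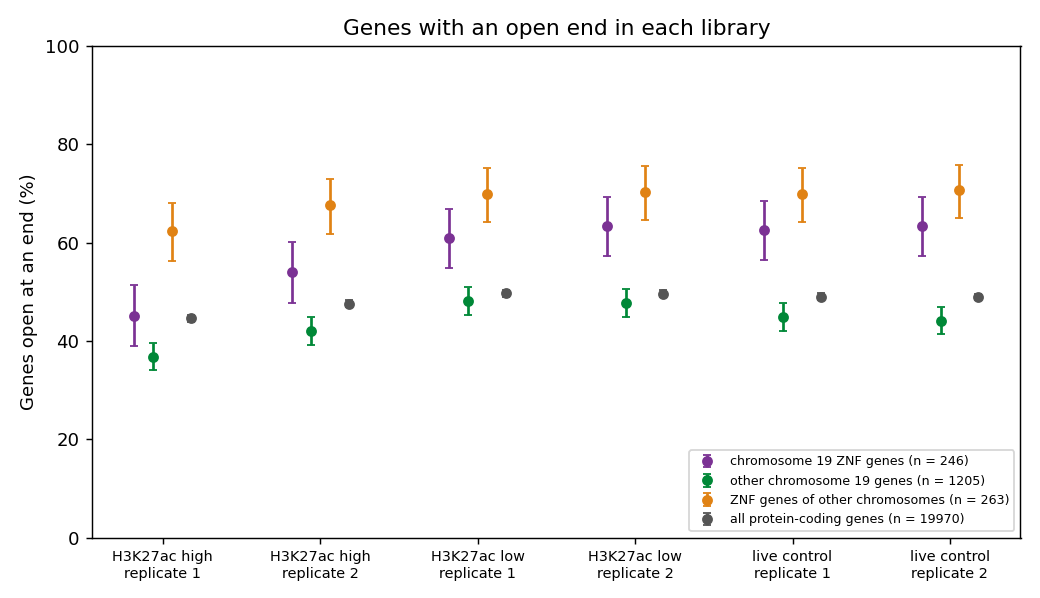
Share of genes open at an end (%, vertical axis) in each of the 6 libraries for the chromosome 19 ZNF genes and 3 other gene sets, with 95% Wilson intervals. The chromosome 19 ZNF genes are at 45.1% and 54.1% in the H3K27ac-high libraries and between 61.0% and 63.4% in the 4 others, above the other chromosome 19 genes in every library.

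The other genes of chromosome 19 were open less often in every library. Their shares were 36.8% and 42.0% in the high, 48.1% and 47.7% in the low and 44.8% and 44.1% in the live control. ZNF genes on other chromosomes were open more often, at 62.4% and 67.7% in the high, 70.0% and 70.3% in the low and 70.0% and 70.7% in the live libraries. The lead of the chromosome 19 ZNF genes over the other genes of the chromosome was 8.28 and 12.1 points in the high, 12.8 and 15.7 in the low and 17.8 and 19.3 in the live control. In this lead all 4 sorted libraries lay below both live libraries (sorted minus live -6.30 points, exact p = 0.0667, the smallest that 4 libraries against 2 allow). The difference was -1.64 points without high replicate 1 on lengthened lists. On full lists it was -2.66 points (exact permutation p = 0.6), and the order did not hold. There low replicate 2 had 73.6% of the ZNF genes open against 55.2% of the other chromosome 19 genes. Both live libraries had a smaller lead, at 74.4% against 56.9% and 74.8% against 57.6%.

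Across the 6 libraries, 93 of the 246 genes (37.8%) were open in all, against 40.2% of all protein-coding genes and 32.6% of the other chromosome 19 genes. In the full lists the count was 110 genes (44.7%, against 43.5% of all). In no library were 80 genes open (32.5%, against 45.6% of all genes), and 58 genes (23.6%) had no end summit in any full list, against 35.7% of all genes. A gene with neither an end summit nor a summit in its body in any list was found 31 times (12.6%, against 20.4%). The shares open everywhere are thus close to the background, and the shares never open are below it. The ZNF genes of other chromosomes were open in all 6 libraries for 57.4% and in none for 24.0%. Of them, 9.13% had neither an end nor a body summit in any list.

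The ZNF genes with the strongest ends ranked high in all libraries. ZNF8 had ranks of 2501 and 1035 in the high, 1260 and 617 in the low and 807 and 1173 in the live control, with its summits 128 to 165 bp upstream of its start. ZNF91, the SVA repressor, had ranks of 3955 and 4701 in the high, 2644 and 2744 in the low and 845 and 209 in the live control. Its 3 groups do not overlap, with the live libraries strongest and the high libraries weakest. ZNF724, the neighbour of ZNF91, had ranks of 1111 and 4542 in the high, 3948 and 3526 in the low and 641 and 881 in the live libraries, so its high and low libraries overlap and the live ones lie above both.

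ZNF548 had ranks of 4359 and 4761 in the high, 2127 and 2778 in the low and 883 and 758 in the live control, in the same order of groups as ZNF91. ZNF787 had ranks of 4808 and 2114 in the high, 1711 and 1355 in the low and 4218 and 2014 in the live libraries. There the low libraries were the strongest and the high and live ranks overlap. ZNF584 completes the 6 genes with the best weakest rank, at 4103 and 1965 in the high, 1021 and 705 in the low and 773 and 266 in the live libraries. Its summits lay just before the annotated 5′ end of the gene (chr19:58401558-58418327, plus strand), at -7244 bp in low replicate 1 and -7300 bp in high replicate 2 from the only start in the promoter table. In all, 66 of the 246 genes have an end within 2 kb of another gene's end, and 14 share their best summit with another ZNF gene of the chromosome.

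Open ends were nearly always promoters. For 216 of the 246 genes the RefSeq promoter table gave strand and starts. Of these, 101 and 118 had a best region at the 5′ end in the high, 133 and 140 in the low and 137 and 140 in the live control. The 3′ end had one in 2 and 2 genes of the high, 4 and 3 of the low and 3 and 3 of the live libraries. Counting every listed start, 116 and 138 genes were open in the high, 155 and 160 in the low and 158 and 160 in the live libraries. The summits lay just upstream of the start, with medians of -72 and -60 bp in the high, -63 and -64 bp in the low and -58.5 and -60 bp in the live libraries. Between 79.4% and 85.8% of them were upstream, and the medians of the low and live libraries lay within a few bases of each other.

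**Figure D2:**
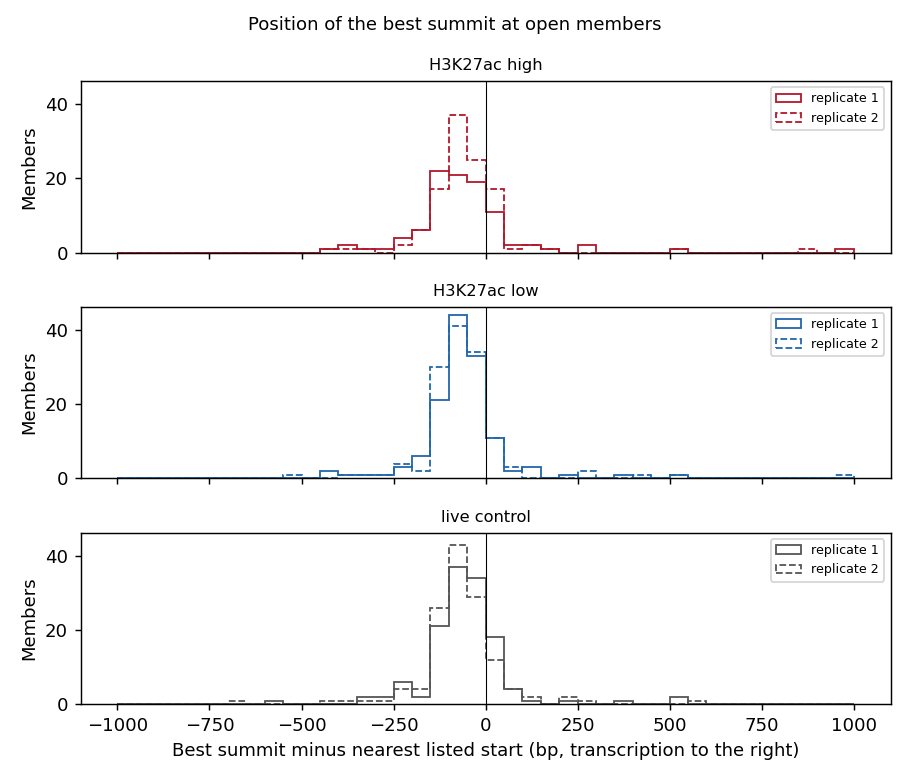
Distance of each gene's best summit to its nearest listed start (bp, horizontal axis, transcription to the right) against the number of chromosome 19 ZNF genes (vertical axis), in 1 panel per group with a line per replicate. All 6 libraries peak just upstream of the start, with medians between -72 and -58.5 bp.

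Among genes with no end summit, part were open at an inner start instead. Of the 58 such genes, 27 had a summit in the body and 21 of them within 1 kb of a listed inner start. ZNF331, which is imprinted in several human tissues, had an inner start with ranks of 20404 and 11678 in the high, 5074 and 3575 in the low and 6623 and 7481 in the live control. It also had the most regions in its body, 1 and 4 in the high, 4 and 4 in the low and 4 and 4 in the live lists. ZNF875, formerly HKR1, had inner-start ranks of 8624 and 11053 in the high, 2061 and 3120 in the low and 1640 and 1334 in the live libraries. At both genes the high libraries were the weakest and did not overlap the others.

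ZNF563 had inner-start ranks of 22518 and 12244 in the high, 11392 and 9169 in the low and 5533 and 3805 in the live libraries. ZNF575 had 12961 and 10112 in the high, 5639 and 6764 in the low and 9532 and 19700 in the live libraries, where live replicate 2 was the weakest of all. ZNF43, a close relative of ZNF91, was not listed in high replicate 1 and had an inner-start rank of 24788 in high replicate 2, 36653 and 47631 in the low and 30845 and 28124 in the live libraries. Its high and low libraries cannot be ordered, since high replicate 1 has the shortest list.

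Bodies held few summits. A best region lay in the body, away from both ends, in 11.4% and 13.0% of the genes in the high, 14.2% and 15.0% in the low and 15.4% and 15.4% in the live control. In points, high minus low was -2.44, high minus live -3.25 and low minus live -0.81 (exact p = 0.333 each, the smallest possible), and sorted minus live was -2.03 (exact p = 0.133). Any full list held a body summit for 64 genes (26.0%, against 53.6% of all genes). A body summit in all 6 full lists was found in 10.6% of the genes, against 22% of all protein-coding genes and 10.2% of the other chromosome 19 genes. The ZNF genes are not short, with a median length of 23152 bp against 24190 bp for all genes. Per 100 kb of body, the full lists gave 0.585 regions in the high, 0.822 in the low and 0.975 in the live group, against 1.15 in the high, 1.55 in the low and 2.45 in the live group over all genes. ZNF69 had 1 and 2 body regions in the high, 3 and 3 in the low and 4 and 3 in the live lists, and ZNF600 had 1 and 1 in the high, 2 and 2 in the low and 3 and 4 in the live lists. The longest genes without any summit were ZNF577, ZNF676, ZNF730, ZNF208, ZNF578 and ZNF560.

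Comparing H3K27ac high with H3K27ac low, no chromosome 19 ZNF gene was open in both high and neither low library (background 0.255% of all genes), and 10 were open in both low and neither high library. Those 10 are 4.07% of the 246, against 1.5% of all genes and 3.40% of the other chromosome 19 genes. With high replicate 1 left out the count was 20 (2.4% of all genes met the rule there), and 9 (1.36% of all) if the lists were then lengthened. With high replicate 2 left out it was 39 (5.54% of all). On full lists it was 8 genes, against 0.991% of all genes, and none of the 8 is among the 10. High replicate 1 listed none of the 10 at all, and high replicate 2 listed every one of them at a rank past 25627.

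ZNF274, which brings SETDB1 to the 3′ ends of ZNF genes, was listed at rank 33790 in high replicate 2, at 13894 and 16108 in the low and at 12603 and 19164 in the live libraries. ZNF20 was at 25639 in high replicate 2, just past the limit, at 11503 and 16734 in the low and at 12562 and 14570 in the live libraries. ZNF841 was at 28929 in high replicate 2, at 14819 and 11183 in the low and at 23757 and 11512 in the live libraries. In these 3 genes, as in all of the 10 except ZNF284, the low and live ranks overlap.

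ZNF284 was at 26455 in high replicate 2, at 18390 and 16793 in the low and at 3651 and 7046 in the live libraries, where the live libraries stand clear of the low. ZNF583 was at 40058 in high replicate 2, at 17146 and 19781 in the low and at 19507 and 17457 in the live libraries. ZNF582, whose promoter is known to be methylated in cervical cancer, was at 44090 in high replicate 2, at 24278 and 23546 in the low and at 33437 and 23221 in the live libraries. Its low ranks were close to the limit, and the live libraries lay on both sides of it.

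ZNF649 was at 41811 in high replicate 2, at 20898 and 22209 in the low and at 15908 and 23582 in the live libraries. ZNF561 was at 33039 in high replicate 2, at 16318 and 22565 in the low and at 14627 and 20229 in the live libraries. ZNF529 and ZNF382 have ends 230 bp apart and count the same summits, at 28624 in high replicate 2, at 15037 and 22706 in the low and at 17021 and 26718 in the live libraries. The 10 genes are therefore 9 open sites.

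**Figure D3:**
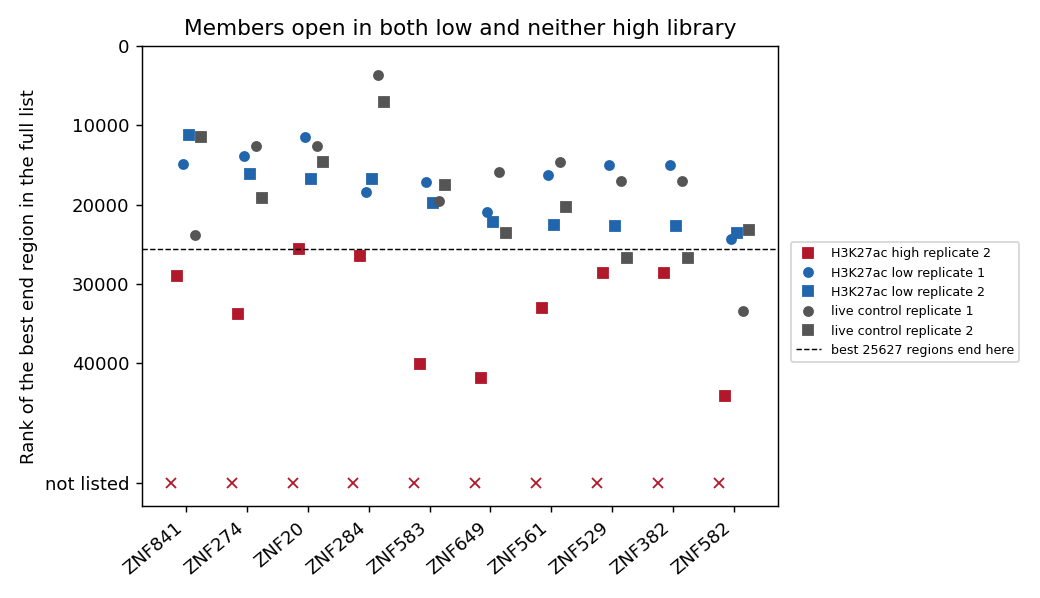
Rank of the best end region in the full list (vertical axis, strongest at the top) for the 10 chromosome 19 ZNF genes open in both H3K27ac-low and neither H3K27ac-high library, by library. Crosses mark H3K27ac-high replicate 1, which listed none, and the squares of high replicate 2 all lie below the dashed line at rank 25627.

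By rank, with a gene that was not open placed last, 94 of the 246 genes (38.2%) had both low libraries stronger than both high libraries, against 20.5% of all genes. The other chromosome 19 genes gave 37.8%, close to the share of the ZNF genes, and the ZNF genes of other chromosomes gave 28.1%. The opposite order, both high stronger than both low, was found in 2 of the 246 genes, against 5.85% of all genes. They are named after their values were seen. ZNF738 had ranks of 10273 and 6449 in the high, 10395 and 13583 in the low and 3986 and 2979 in the live control. ZNF850 had ranks of 17311 and 16590 in the high, 18882 and 17673 in the low and 21254 and 18839 in the live libraries. Both margins were narrow beside the spread within the groups. Without high replicate 1 the count was 17 (12.4% of all genes met the rule there), without high replicate 2 it was 12 (12.5% of all), without low replicate 1 it was 4 (9.93%) and without low replicate 2 it was 9 (9.5%).

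Among the 93 genes open in all 6 libraries, the median rank was 12052 and 9176 in the high, 6372 and 6139 in the low and 5137 and 5101 in the live control. The mean high rank was weaker than the mean low rank in 86 of the 93 (92.5%), against 96.9% of the 393 other chromosome 19 genes and 67.6% of all 8022 genes open in all 6. The median of high minus low was 4168 ranks for the ZNF genes, 3801 for the other chromosome 19 genes and 978 for all genes. Low minus live had a median of 176 ranks for the ZNF genes and -1898 for the other chromosome 19 genes. For high minus live the medians were 4548 ranks for the ZNF genes and 1440 for the other chromosome 19 genes.

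Against the live control, 106 of the 246 genes (43.1%) had both live libraries stronger than both high libraries, beside 16.8% of all genes, 19.8% of the other chromosome 19 genes and 24.7% of the ZNF genes on other chromosomes. Both live libraries were stronger than both low libraries in 51 genes (20.7%), beside 11.6% of all, 5.06% of the other chromosome 19 genes and 19.8% of the ZNF genes on other chromosomes, close to the share on chromosome 19. The reverse, low stronger than live, was found in 30 genes (12.2%, beside 19.8% of all and 27.6% of the other chromosome 19 genes), and high stronger than live in 5 (2.03%, beside 11.2% of all), namely ZNF850, ZNF576, ZNF296, ZNF524 and ZNF865. All low and live ranks were stronger than both high ranks in 66 genes (26.8%, beside 9.36% of all and 16.7% of the other chromosome 19 genes), and in 106 without high replicate 2 (19.3% of all genes met the rule there). These counts share the live libraries, and the 2 with high also share the high libraries with the contrast of high against low. Ranks that do not overlap between 2 libraries and 2 have no test of their own, and sorted and live libraries also differed in preparation.

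Both live libraries were stronger than all 4 sorted libraries in 49 genes (19.9%, beside 8.34% of all genes). All 4 sorted libraries were stronger than both live libraries in 3 genes (1.22%, beside 8.88% of all), named after their values were seen. ZNF576 had ranks of 9832 and 6919 in the high, 3234 and 5574 in the low and 22863 and 17402 in the live libraries. ZNF524 had 8318 and 9176 in the high, 7469 and 7265 in the low and 19904 and 14461 in the live libraries. ZNF865 had 15317 and 5788 in the high, 2975 and 3674 in the low and 21452 and 19671 in the live libraries.

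By presence alone, 13 genes were open in both live and neither high library (5.28%, beside 1.54% of all genes) and 1, ZNF296, in both high and neither live library (background 0.501%). No gene was open in all sorted and no live library (background 0.32%). One was open in both live and no sorted library (background 0.351%): ZNF625, the neighbour of ZNF20, which was absent from high replicate 1 and low replicate 1, and at 33477 in high replicate 2, 25718 in low replicate 2 and 14001 and 12195 in the live libraries. Leaving out low replicate 1 made that count 5. Between low and live 1 gene was called in each direction, named after the values were seen: ZNF784 in low only (background 1.17%) and ZNF625 in live only (background 0.726%).

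Of the 133 genes open in both low and both live libraries, 100 were open in high replicate 1 and 119 in high replicate 2. All 133 were in the full list of high replicate 2, and 7 were open in neither high library by the kept regions. For all 8881 genes open in the low and live libraries, 8132 were open in high replicate 1, 8632 in high replicate 2 and 139 in neither. The full list of high replicate 2 held 8867 of them, so nearly all genes were listed there, ZNF genes or not. By the kept regions the ZNF genes fell short of all genes. A smaller part of them was open in each high library, and a larger part was open in neither.

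Along the chromosome, 232 of the 246 genes fell into 10 clusters of at least 5, parted by gaps of over 500 kb, and 14 lay outside them. On the short arm, cluster 3 (chr19:11483429-12633834, 25 genes) had 11 and 15 genes open in the high, 17 and 17 in the low and 18 and 18 in the live libraries. On the long arm, cluster 6 (chr19:36182060-37779586, 26 genes) had 12 and 13 in the high, 17 and 18 in the low and 19 and 17 in the live libraries. Cluster 7 (chr19:43530835-44500522, 23 genes) had 8 and 11 in the high, 14 and 14 in the low and 15 and 15 in the live libraries. In all 3 clusters both high libraries lay below the other 4.

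Cluster 8 (chr19:51571283-53580269, 39 genes) had 17 and 19 open in the high, 24 and 23 in the low and 21 and 23 in the live libraries. Cluster 9 (chr19:55476617-56671757, 16 genes) had 4 and 6 in the high, 8 and 8 in the low and 6 and 7 in the live libraries. Cluster 10, at the end of the long arm (chr19:57191500-58489533, 43 genes), had 22 and 32 in the high, 29 and 34 in the low and 34 and 34 in the live libraries, so its high and low libraries overlap. Cluster 2 (chr19:8509678-9786160, 13 genes) had 5 and 5 in the high, 7 and 8 in the low and 7 and 8 in the live libraries. The small clusters 1 and 5, with 5 genes each, moved by at most 1 gene between libraries.

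The cluster that holds ZNF91 had nearly the same number of open genes in all libraries. Cluster 4, beside the centromere on the short arm (chr19:19668153-24129968, 37 genes), had 22 and 21 genes open in the high, 22 and 22 in the low and 21 and 21 in the live libraries. Its share open in high minus low was -1.35 points, against -19.6 to -10.5 points in the other clusters of 13 or more genes. Over the 10 clusters the exact p for high against low was 0.333 to 1, and 0.556 to 1 after Benjamini-Hochberg adjustment. Set against the other 209 ZNF genes of the chromosome, the cluster's share was 16.9 and 3.17 points higher in the high libraries, and differed by -1.78 and -4.66 points in the low and -6.88 and -7.84 in the live libraries. That difference was 13.2 points larger in high than in low (exact p = 0.333, the smallest possible, in a comparison chosen after the data were seen), and 6.39 points larger without high replicate 1. Both low libraries were stronger than both high in 8 of the cluster's 37 genes (21.6%) and in 86 of the other 209 (41.1%), beside the 20.5% over all genes. Both live libraries were stronger than both high in 17 of the 37 (45.9%) and in 89 of the other 209 (42.6%). By this rank order against the live control the cluster was close to the rest. By share open it was not: high minus live was 1.35 points in cluster 4, against -23.9 to -9.38 points in the other clusters.

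**Figure D4:**
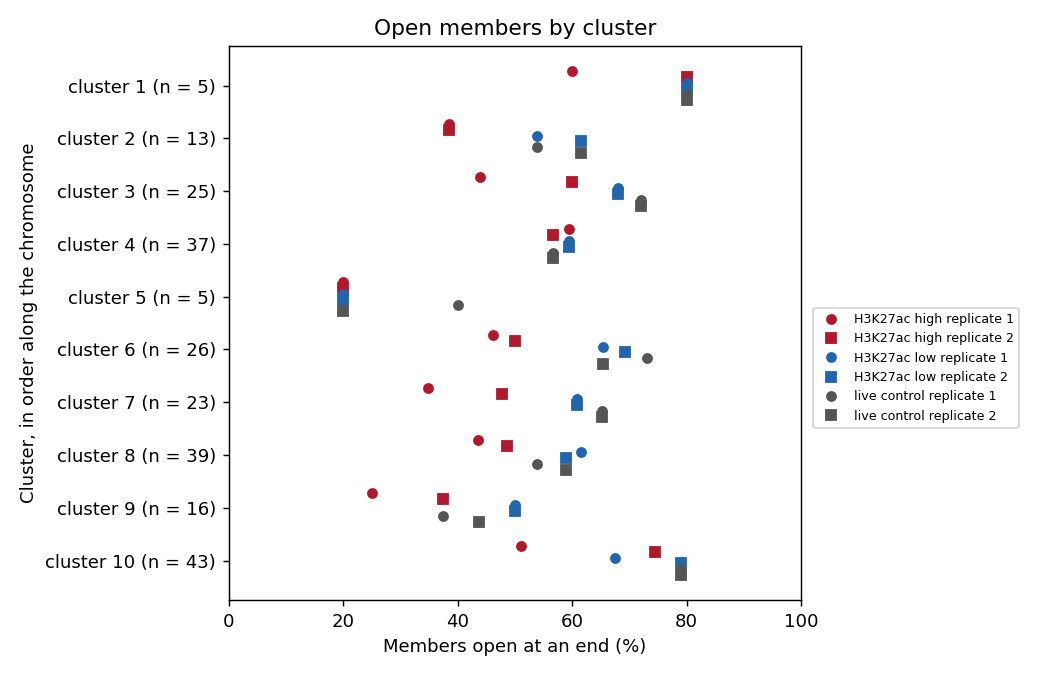
Share of each cluster's genes open at an end (%, horizontal axis) for the 10 clusters of chromosome 19 ZNF genes in order along the chromosome, with 1 point per library. The points of the ZNF91 cluster (cluster 4) lie between 56.8% and 59.5% in all 6 libraries, while both H3K27ac-high libraries lie left of the 4 others in clusters 2, 3, 6, 7 and 8.

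Within cluster 4, genes with and without open ends stood in rows. A row of 10 neighbours, ZNF66 to ZNF100 (chr19:20776304-21767579), was open in all 6 libraries. The next 11 genes in a row, ZNF43 to ZNF730 (chr19:21804946-23147221), had no end summit in any full list, and of these ZNF43 alone had a summit in its body. No other protein-coding gene lies inside either stretch. Beyond them ZNF724, ZNF91, ZNF675 and ZNF681 were open in all 6 again. Both stretches were picked after their values were seen. Open and closed refer here to the annotated ends. The promoter of ZNF43, counted in the closed stretch, had a summit near its listed start in 5 of the 6 full lists. Of the promoters in the table, 7 of 9 in the open stretch and 6 of 6 in the closed one held the ETS core. The CCAAT box was in 9 of 9 of the open and 6 of 6 of the closed stretch. ZNF208, printed above, is in the closed stretch and has 2 CCAAT boxes and 1 ETS core, as has the open ZNF724.

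The genes with the best weakest rank in each remaining cluster except cluster 5 were ZNF57, ZNF414, ZNF564, ZNF527, ZNF230, ZNF160, ZNF787 and ZNF8. ZNF57 of cluster 1 had ranks of 7501 and 3288 in the high, 1561 and 2016 in the low and 1639 and 2023 in the live libraries. ZNF564 of cluster 3 had 4571 and 7353 in the high, 1304 and 1290 in the low and 341 and 579 in the live libraries, which puts the 3 groups in the same order as at ZNF91. ZNF160 of cluster 8 had 9293 and 4913 in the high, 1868 and 1162 in the low and 2514 and 3883 in the live libraries, with low the strongest.

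ZNF414 of cluster 2 had 11244 and 10888 in the high, 6908 and 6305 in the low and 10043 and 9379 in the live libraries. ZNF527 of cluster 6 had 3490 and 4883 in the high, 2111 and 1803 in the low and 979 and 3251 in the live libraries. ZNF230 of cluster 7 had 5878 and 13860 in the high, 11510 and 5331 in the low and 5137 and 6809 in the live libraries. At ZNF230 the groups overlap throughout. Cluster 5 had no gene open in all 6 libraries, so its genes tie under the rule. ZNF302, the first of the tie, was listed only by high replicate 2, at 46029.

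The promoters of these genes are rich in the ETS core and the CCAAT box. The ETS core was in 97 of 216 (44.9%), against 14.1% of the 15811 listed promoters of all genes, 13.0% of the other chromosome 19 promoters and 33.2% of the promoters of ZNF genes on other chromosomes. The CCAAT box was in 117 (54.2%), against 36.4% of all, 37.4% of the other chromosome 19 promoters and 42.99% of those of ZNF genes on other chromosomes. Among all genes open in all 6 full lists, the ETS core was in 23.1% and the CCAAT box in 40.6%. Both together were in 27.3%, against 4.9% of all. TATAAA was in 2.31% against 9.8% of all, and the SP box GGGCGG in 67.1% against 58.3%. Matches on either strand were counted, ETS core and CCAAT box do not overlap in letters, and 11 words were searched in all. A match is a match of letters only.

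In cluster 4 the CCAAT box was in 29 of 29 promoters and the ETS core in 21 of 29 (72.4%), against 47.1% for the CCAAT box and 40.6% for the ETS core in the 187 promoters outside it. The ETS core of cluster 4 sat at a median of -20 bp (quartiles -23 and -18) and the CCAAT box at -57 bp (quartiles -82 and -52). Outside it the quartiles were wider, -55.25 and 4 bp for the ETS core. Pairs of cluster 4 promoters had 12-base words in common in 89.4% of 406 pairs, with a median of 9.55% of the words, against 4.31% of 20618 pairs between clusters. These promoters are close copies, so they are not independent.

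**Figure D5:**
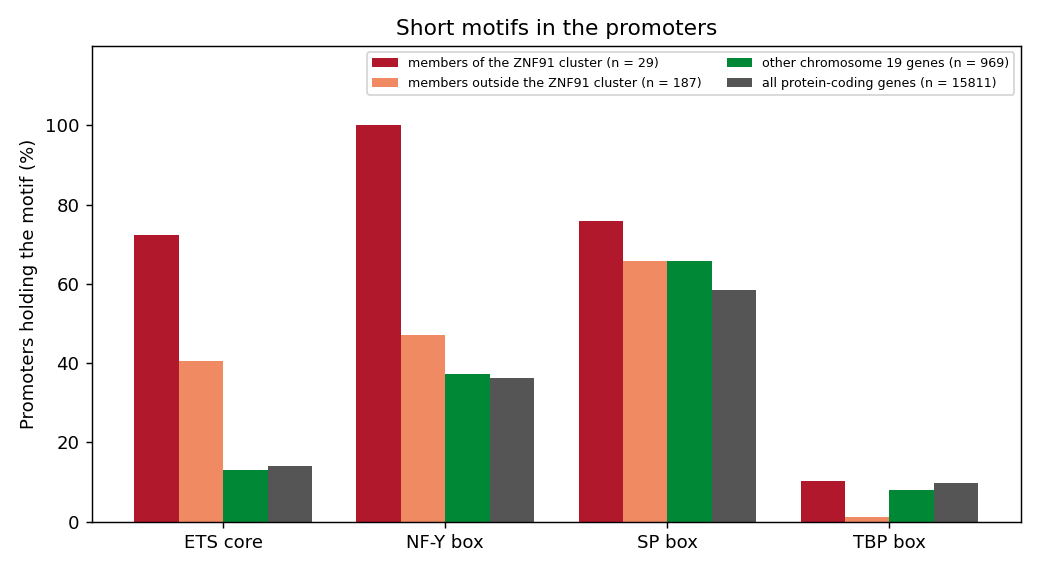
Share of promoters that hold each of 4 short words on either strand (%, vertical axis) in the ZNF91 cluster, the other chromosome 19 ZNF genes, the other chromosome 19 genes and all protein-coding genes. The CCAAT box (labelled NF-Y box) is in all 29 promoters of the ZNF91 cluster and the ETS core in 72.4% of them, against 36.4% and 14.1% of all promoters.

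Genes whose promoter held either word were open at an annotated end more often than genes without it in every library. The open end need not be the promoter that was searched. Genes with the ETS core were open for 52.6% and 58.8% in the high, 66.0% and 69.1% in the low and 68.0% and 69.1% in the live control. Those without it were open for 42.0% and 51.3% in the high, 58.8% and 61.3% in the low and 59.7% and 61.3% in the live libraries. With the CCAAT box the shares were 50.4% and 62.4% in the high, 65.0% and 66.7% in the low and 65.8% and 67.5% in the live libraries, and without it 42.4% and 45.5% in the high, 58.6% and 62.6% in the low and 60.6% and 61.6% in the live libraries. These promoters include close copies, and no test was made over them.

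CpG content was moderate. The 300-base promoters of the ZNF genes had a median of 20 CpG, against 22 over all genes and 27 in genes open in all 6 full lists. Those of cluster 4 had a median of 10 and those outside it 21. Among promoters with at most 16 CpG, the ZNF genes were open for 40.3% and 50.0% in the high, 54.2% and 54.2% in the low and 55.6% and 56.9% in the live libraries. Over all genes with so few CpG the shares were 20.5% and 21.99% in the high, 22.9% and 22.4% in the low and 22.9% and 22.95% in the live libraries. CpG content was not matched within the class, so this does not compare promoters of equal CpG. The lower quartile of CpG over the listed promoters was 8 for all genes and 14 for the ZNF genes. Both low libraries were stronger than both high in 26.4% of the ZNF genes with at most 16 CpG, in 43.2% of those with 17 to 23 and in 48.6% of those with 24 or more. Over all genes these were 7.42%, 22.9% and 32.8% in the same classes. Cluster 4 had few CpG and few genes with that order, and the part of CpG content in its pattern was not tested.

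Genes of known role were found at all levels. ZNF93, the L1 repressor, had ranks of 21276 and 17314 in the high, 11186 and 16412 in the low and, in the live full lists, 27672 and 12043. ZNF85, of the ZNF91 family, had 12686 and 15544 in the high, 8047 and 12458 in the low and 7100 and 9986 in the live libraries. ZNF432, linked to DNA repair, had 18019 and 19001 in the high, 10594 and 11449 in the low and 15074 and 10990 in the live libraries. At all 3 both low libraries were stronger than both high.

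ZNF175, known as OTK18 and linked to the control of HIV in macrophages, had ranks of 12253 and 12259 in the high, 6580 and 9078 in the low and, in the live full lists, 29891 and 11373. ZNF146, which consists almost wholly of zinc fingers, had 6499 and 4705 in the high, 2957 and 3352 in the low and 4926 and 3669 in the live libraries, and shares these summits with ZNF565. ZNF296, which has no KRAB domain, was open with ranks of 14686 and 7590 in the high libraries and 6552 in low replicate 2, and past the limit in the others. ZNF568, whose mouse counterpart represses a placental transcript of Igf2, was in neither high list and at 36525 and 47696 in the low and 67894 and 43081 in the live full lists. ZNF154, whose promoter is known to be methylated in many tumours, had no summit in any library.

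The genes of the corepressor list were mostly open. Of 25 listed genes, 19 were open in all 6 libraries (background 40.2%), 7 had both low libraries stronger than both high (background 20.5%) and 2 the reverse (background 5.85%). TRIM28 had ranks of 1333 and 2652 in the high, 1026 and 1985 in the low and 2901 and 751 in the live libraries, with all groups overlapping. SETDB1 had 13005 and 3741 in the high, 2743 and 4139 in the low and 8684 and 9758 in the live libraries, where high replicate 1 was the weakest. Of 22 other zinc finger genes of chromosome 19, such as ZFP and ZSCAN genes, 8 and 8 were open in the high, 11 and 11 in the low and 11 and 11 in the live libraries. Both low libraries were stronger than both high in 7 of the 22 and none had the reverse order.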

How the data were processed

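Per the submitters' processing notes, the authors' tools were bcl2fastq, FastQC, Bowtie2, Picard and MACS2 and the builds hg38 and hg19. Versions and settings were not given in the sources used here. Every library has its own deposited summit list with a score for each summit, read as the −log10 of the authors' p-value or q-value (lowest score 2.02) and used only to rank within a list. At open ZNF genes, the best summits within 1 kb of a listed GRCh38 start lay a median of -72 to -58.5 bp from it. The 1 kb limit bounds these distances, so the median alone does not show the build. The quartiles lay between -122 and -13 bp in every library, far inside the limit, and the lists were taken to be on hg38. Depth is unknown, so no precision per site can be given.

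Summits of chromosomes 1 to 22 and X that lay closer than 250 bp were chained into 100513 regions, and the best 25627 of each library were kept. Gene ends and promoters came from RefSeq tables (GRCh38.p14), in which 216 of the 246 genes had a promoter. Protein sequences were not used here. Shares were compared over libraries with two-sided exact permutation tests. The genes, lists and rule for named genes were chosen with earlier results of these data known. The rule named genes with the best weakest rank, those open in 1 group only, the leading gene of each cluster, those with most body regions, the longest without a summit, genes of known role, a corepressor list and other zinc finger genes of the chromosome. Same-numbered replicates did not deviate together (r = 0.0512 for high and low, 0.00736 for high and live, 0.0294 for low and live, over genes), so none were treated as pairs. Alternatives covered list length, chaining, window, starts only, neighbouring ends, cluster gap, the replicate block and each library left out. Python 3.11.15, pandas 2.3.3, numpy 2.4.6, scipy 1.17.1 and matplotlib 3.10.9 were used.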

Additional observations from a re-analysis of the deposited data

How the results depend on the processing

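Of 102 alternatives for a count, 75 stayed within 1.5 times the count reported. Of 175 for a difference other than 0, 2 turned its direction and 45, over 14 results, moved it by over 1.5 times. The share open, high minus low, ran from -17.1 to -3.66 points and sorted minus live from -10.9 to -1.63. The lead over other chromosome 19 genes ran from -5.99 to -1.21 points for high minus low and from -11.5 to -1.64 for sorted minus live. The exact tests cannot pass with these numbers of libraries, so their p says nothing on stability. The lead of the ZNF genes over other chromosome 19 genes, low minus live, turned to 0.23 points on full lists, and the share open, low minus live, ran from -2.03 to 0.41 points with a library left out. The best 12813 regions gave 58 genes with both low ranks stronger than both high (16.1% of all genes), 1 with the reverse (4.93%), 36 with all low and live ranks stronger than both high (6.6%), 7 open in the live control only (0.796%) and 2 in the sorted libraries only (0.976%). Open in the live control only were 4 genes on full lists (1.94% of all) and 2 (0.341%) with summits joined up to 1000 bp, and counting gene starts only left 1 gene with both high ranks stronger than both low (6.48% of all). With a library left out, 0 to 3 genes were open in high and not low, 13 to 39 in low and not high, 0 to 2 in sorted only and 1 to 5 in live only. Both high ranks were stronger than both low in 4 to 17 genes, and all low and live ranks stronger than both high in 74 to 106. Without high replicate 1 and on lengthened lists, 1 gene was open in high and not low, 1 in sorted only, and 17 had both high ranks stronger than both low. The larger counts without a library follow in part from fewer libraries having to meet the rule. With the replicate block, high minus low in the share open was -12.6 points (p = 0.5 by exact sign flips of 2 pairs, the smallest possible). The block left the other 8 differences it was run on at the same values. Replicate numbers are shared in the labels with no statement that they mark pairs. All counts depend on list lengths, which differ between libraries, and the lists hold no read depth.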
